A study of Mus musculus with 2 samples.

Results

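The genes described here are the Wnt ligands, their receptors and the secreted proteins that hold them back, measured in cultured fibroblastic reticular cells (FRCs), the fibroblasts that form the scaffold of the lymph node. They were taken by symbol from the annotation of the array's single-gene probe sets: all genes of the Wnt, Frizzled (Fzd), secreted Frizzled-related (Sfrp), Dickkopf (Dkk) and R-spondin (Rspo) series, together with Lrp5, Lrp6, Lgr4, Lgr5, Lgr6, Wif1, Ror1, Ror2 and Ryk. This gave 51 genes of 19751 named genes, on 52 probe sets. Of these genes, 50 encode proteins, and Fzd10os, a long noncoding RNA gene whose symbol fits the pattern, is the other.

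The series holds 1 group of 2 arrays, called replicate 1 and replicate 2 as in the titles. Both come from untreated C57BL6/J mice 4 to 6 weeks old, whose lymph node stroma was expanded in αMEM with fetal calf serum for 7 to 10 days before total RNA was taken. The labels call the FRCs purified without naming a sort, and they do not tell whether the replicates were separate animals or separate cultures, so their spread may be technical. There is no other condition, cell type or fresh tissue in the series, and what follows describes levels and the difference between 2 arrays without any significance test.

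Wnt proteins are secreted lipid-modified glycoproteins that bind Frizzled receptors. With the coreceptors Lrp5 or Lrp6 they stop the breakdown of β-catenin, which then acts with TCF/LEF factors in the nucleus, and with Ror1, Ror2 or Ryk they act on cell shape and movement without β-catenin. R-spondins bind Lgr4, Lgr5 or Lgr6 and raise the number of Frizzled receptors on the surface, whereas Sfrp proteins and Wif1 capture Wnts and most Dickkopf proteins block Lrp5 and Lrp6. Fibroblasts are a source of Wnts, R-spondins and Wnt antagonists in many tissues.

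All levels below are log2 of the deposited intensity, and the level of one gene is not set against that of another, since probes bind with unequal strength. An array has no true zero, so a level was read against 2 background limits. The first was the 95th percentile of 1035 olfactory receptor probe sets (7.15 on replicate 1, 7.17 on replicate 2), because fibroblasts are not known to use these genes. The second, stricter limit was the 95th percentile of 32 probe sets of genes restricted to organs such as liver, retina, testis or pancreas (8.09 and 8.19). It is given throughout because 14 of these 32 genes (43.8%) passed the first limit themselves.

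Of the 51 genes, 40 (78.4%) lay above the first limit on both arrays, beside 67.3% of all named genes. Above the stricter limit on both arrays lay 26 (51.0%), beside 49.7% of all named genes, which is close to the background share. The roles differed in how many members gave signal. All 10 Frizzled genes and all 5 coreceptors and kinase receptors passed the first limit, and 8 and 5 of them passed the second. Of 19 Wnt ligands 16 passed the first and 8 the second limit, of 9 antagonists 5 and 3, and of 4 R-spondins 2 and 0.

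**Figure D1:**
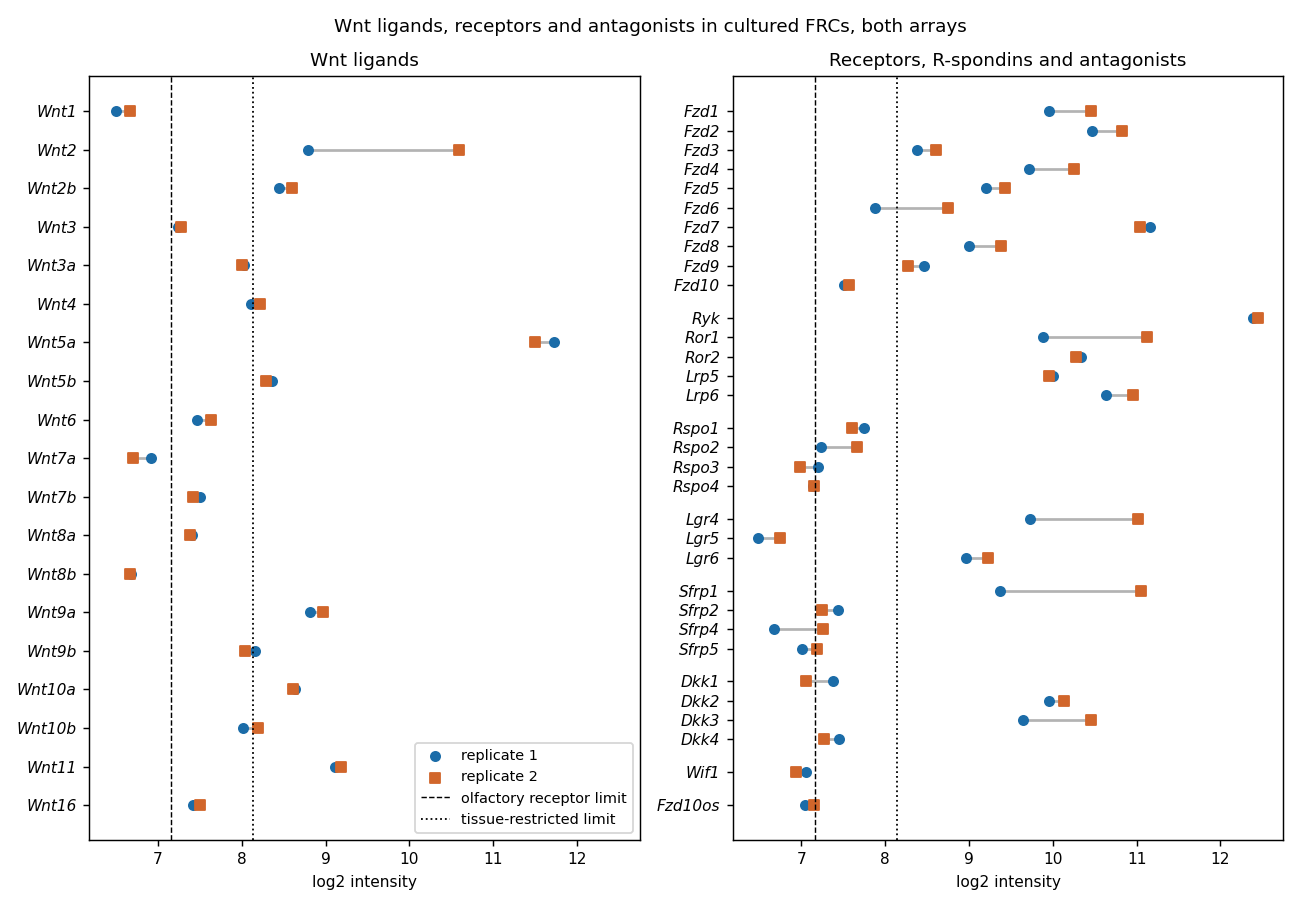
Log2 intensity of each of the 51 genes on replicate 1 (circles) and replicate 2 (squares), ligands on the left and the others on the right; the dashed and dotted lines are the means over the arrays of the olfactory receptor limit (7.16) and of the tissue-restricted limit (8.14). The Frizzled genes and the coreceptors lie to the right of the first limit, the R-spondins lie left of the second, and Wnt2, Sfrp1, Lgr4 and Ror1 have the widest gaps between the arrays.

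**Figure D2:**
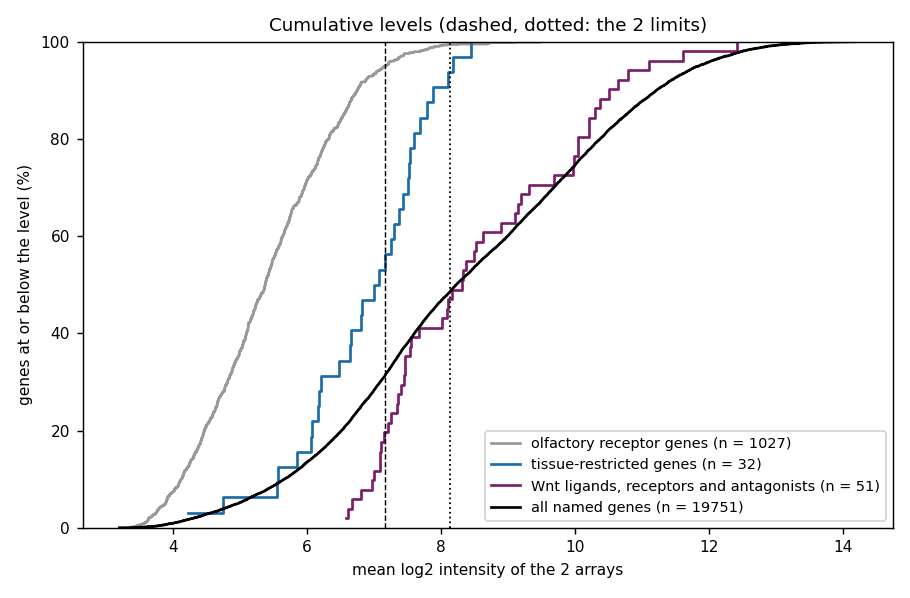
Share of genes (%) at or below each mean log2 intensity for 1027 olfactory receptor genes, 32 tissue-restricted genes, the 51 Wnt family genes and all 19751 named genes, with the means of both limits as vertical lines. The Wnt family curve starts at 6.59, lies to the right of that of all named genes at the first limit and runs close to it around the stricter limit.

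Among the ligands, Wnt5a, which acts mostly through Ror receptors without β-catenin, was at 11.73 on replicate 1 and 11.49 on replicate 2 (mean 11.61 ± 0.17, SD, n = 2). Wnt2, a ligand of the β-catenin branch known for its part in lung development, was at 8.79 and 10.59. Wnt11, another ligand known for cell movement, was at 9.11 and 9.19. All of these levels exceeded the stricter limit, and the arrays differed little for Wnt5a and Wnt11 and widely for Wnt2.

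Further ligands above the stricter limit on both arrays were Wnt9a (8.82 and 8.96), Wnt10a (8.64 and 8.61), Wnt2b (8.45 and 8.60), Wnt5b (8.36 and 8.29) and Wnt4 (8.11 and 8.22). Wnt4 is measured by 2 probe sets with means of 7.94 and 8.39, so its place above the stricter limit rests on the second of them and on averaging. Wnt10b (8.02 and 8.20) passed the stricter limit on replicate 2 and Wnt9b (8.16 and 8.04) on replicate 1. Wnt3a, the ligand most often used to start β-catenin signalling in culture, was at 8.03 and 8.01, above the first limit and below the second on both arrays.

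The remaining ligands lay in or below the zone between the limits. Wnt3, Wnt6, Wnt7b, Wnt8a and Wnt16 had means from 7.26 (Wnt3) to 7.55 (Wnt6). Wnt1, Wnt7a and Wnt8b, all known from the developing nervous system, were below the first limit on both arrays, with means of 6.59, 6.81 and 6.67.

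The Frizzled genes, the coreceptors and kinase receptors and the Lgr genes are 18 receptor genes together. Of these, 17 (94.4%) passed the first limit, beside 67.3% of all named genes, and 15 (83.3%) the second, beside 49.7%. Fzd7 was at 11.16 and 11.04, Fzd2 at 10.47 and 10.83, and Fzd1 at 9.96 and 10.45. These 3 genes encode closely related receptors. Fzd4, whose product also binds the non-Wnt ligand norrin, was at 9.71 and 10.25. Fzd5 (9.21 and 9.43), Fzd8 (9.00 and 9.38), Fzd3 (8.38 and 8.60) and Fzd9 (8.46 and 8.28) were likewise above the stricter limit on both arrays. Fzd6 passed it on replicate 2 (8.75) and not on replicate 1 (7.88). Fzd10 (7.52 and 7.57) passed the first limit alone, and the noncoding Fzd10os (7.04 and 7.16) passed neither.

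The coreceptors of the β-catenin branch were both above the limits, with Lrp5 at 10.00 and 9.95 and Lrp6 at 10.63 and 10.96. So were the receptors of the other branch. Ryk, a receptor with an inactive kinase domain, was at 12.39 and 12.45 and Ror2 at 10.33 and 10.28, each nearly equal on the arrays. Ror1, the relative of Ror2, was at 9.88 and 11.12. Among the R-spondin receptors, Lgr4 was at 9.73 and 11.02 and Lgr6 at 8.97 and 9.23, while the stem cell marker Lgr5 was at 6.48 and 6.75, below the first limit on both arrays.

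The R-spondins had no member above the stricter limit on either array. Rspo1 was at 7.68 ± 0.10 and Rspo2 at 7.45 ± 0.30, and both arrays were above the first limit in each case. Rspo3 (7.20 and 6.99) passed it on replicate 1 alone, and Rspo4 (7.14 and 7.15) missed it narrowly on both.

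Of the antagonists, 3 passed the stricter limit on both arrays. Sfrp1, which captures Wnts, was at 9.37 and 11.05. Dkk2, a ligand of Lrp5 and Lrp6, was at 9.96 and 10.14. Dkk3, a divergent Dickkopf protein that is not a typical Lrp5 or Lrp6 blocker, was at 9.65 and 10.45. The others stayed below the stricter limit on both arrays. Sfrp2 (7.44 and 7.25) and Dkk4 (7.45 and 7.27) passed the first limit, Dkk1 (7.38 and 7.05) passed it on replicate 1, Sfrp4 (6.68 and 7.26) and Sfrp5 (7.01 and 7.18) passed it on replicate 2, and Wif1 (7.06 and 6.94) on neither.

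The replicates were then compared. A difference is the log2 level of a gene on replicate 2 less its level on replicate 1. It was taken for the 13577 genes, 41 of them of the Wnt family, whose mean level exceeded the mean first limit of 7.16. Wnt2, Sfrp1, Lgr4 and Ror1 were at least 2-fold higher on replicate 2, and no Wnt family gene was 2-fold higher on replicate 1. These 4 of 41 genes (9.76%) stand beside 1.05% of all 13577 genes for replicate 2, and 0 of 41 beside 0.368% for replicate 1. With a single array on either side, none of these differences could be checked in a further replicate.

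In linear intensity, Wnt2 was at 444.1 on replicate 1 and 1540 on replicate 2, a 3.47-fold difference that was the 38th in size among the 13577 genes. Sfrp1 was at 660.0 and 2123 (3.22-fold, the 48th). Lgr4 was at 850.7 and 2073 (2.44-fold, the 93rd), and Ror1 at 943.3 and 2231 (2.36-fold, the 106th). Thus a ligand, an antagonist, an R-spondin receptor and a Wnt5a receptor were all higher on the same array. All 8 values exceeded both limits, so these folds are not bounds.

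At 1.5-fold, Fzd6 and Dkk3 joined them, which made 6 of 41 genes (14.6%) higher on replicate 2, beside 2.87% of all genes, and 0 of 41 higher on replicate 1, beside 1.91%. Fzd6 was at 235.9 and 430.9 (1.83-fold) in linear intensity. Its replicate 1 value lay below the stricter limit, and with that array set to this limit the difference was at least 1.58-fold. Dkk3 was at 802.5 and 1403 (1.75-fold). Just short of 1.5-fold were Fzd4 (1.45-fold) and Fzd1 (1.41-fold), also in favour of replicate 2. Sfrp4, outside the 41 genes because its mean was below the limit, was at 102.5 and 153.1, and its lower array was below the first limit.

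**Figure D3:**
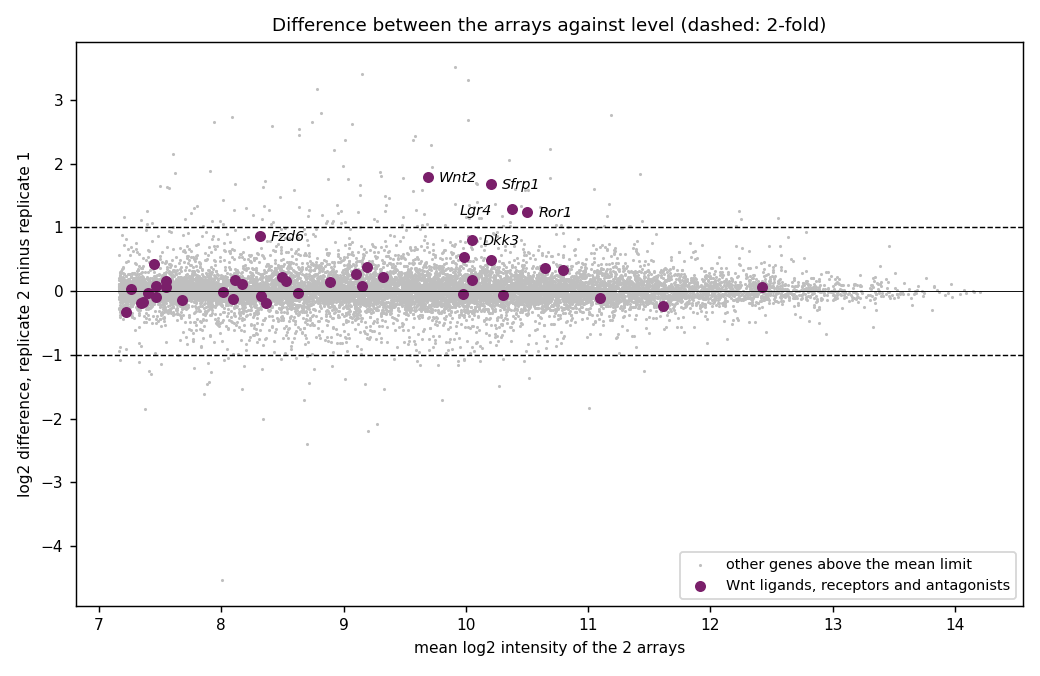
Log2 difference (replicate 2 minus replicate 1) against mean log2 intensity for the 13577 genes above the mean limit, with the 41 Wnt family genes as large points; dashed lines mark 2-fold differences. Wnt2, Sfrp1, Lgr4 and Ror1 lie above the upper dashed line, and no Wnt family gene lies below the lower one.

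Other genes differed between the arrays beside them. Over all 13577 genes above the mean limit, 51.2% were higher on replicate 2. All 7 measured cell cycle genes were lower on replicate 2 (median -0.85), and their summed linear intensity was 9373 on replicate 1 and 5515 on replicate 2. Of the 4 pericyte markers above the mean limit, 3 were higher on replicate 2, with a list median of 0.51. Rgs5 was 5.81-fold higher there (at least 3.51-fold with replicate 1 set to the stricter limit), Cspg4 1.63-fold and Notch3 1.25-fold, while Mcam was at 7343 on replicate 1 and 6766 on replicate 2. The summed intensity of the 5 pericyte markers was 8676 and 9394. Such a sum is compared between the arrays alone, and probe sets with strong signal weigh most in it. Of the 10 FRC markers, 8 were higher on replicate 2 (median 0.13), and their summed intensity was 34087 and 42475. The collagen gene Col3a1 was 2.38-fold higher on replicate 2. Il7, a T cell survival factor made by FRCs, was 1.89-fold higher on replicate 1 as measured, and at least 1.39-fold with replicate 2 set to the stricter limit. The part of cell cycle state or cell makeup in the differences of Wnt2, Sfrp1, Lgr4 and Ror1 was not tested. With RNA taken from many cells together, more cells that express a gene and more RNA per cell cannot be told apart.

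Close relatives of the Wnt family genes that differed did not share their differences in size. Ror2 differed by -0.05 where Ror1 differed by 1.24, Wnt2b by 0.16 where Wnt2 differed by 1.79, and Lgr6 by 0.27 where Lgr4 differed by 1.28. Dkk2 differed by 0.18 and the divergent Dkk3 by 0.81. Fzd4 (0.54) and Fzd1 (0.49) were higher on replicate 2 like Fzd6 (0.87). Sfrp2 differed by -0.19 where Sfrp1 differed by 1.69. Sfrp4 (0.58) and Sfrp5 (0.18), whose means were below the limit, were higher on replicate 2 like Sfrp1. The median size of a difference over all 13577 genes was 0.11, so a small difference in a relative is common. Among the ligands other than Wnt2, the differences of the 15 genes above the mean limit ran from -0.23 (Wnt5a) to 0.18 (Wnt10b).

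The Frizzled genes leaned one way with smaller sizes: 8 of 10 were higher on replicate 2, with a median difference of 0.29, and the exceptions were Fzd7 (-0.11) and Fzd9 (-0.18). Over the 17 receptors above the mean limit, 13 were higher on replicate 2 (median 0.27), over the 16 ligands 9 (median 0.05), and over the 6 antagonists 3 (median 0.00). Over all 41 genes, 26 (63.4%) were higher on replicate 2, with a median difference of 0.11, beside 51.2% and 0.00 over all 13577 genes. The median SD of a Wnt family gene over the arrays was 0.13, beside 0.08 over all genes.

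**Figure D4:**
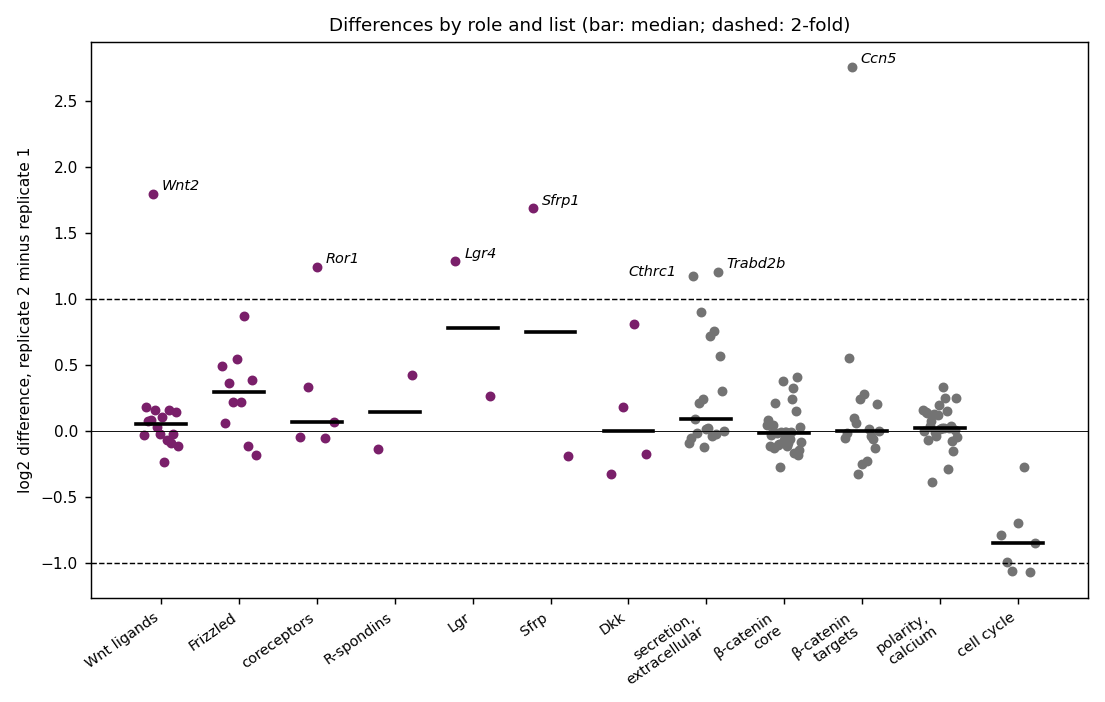
Log2 difference (replicate 2 minus replicate 1) of each gene above the mean limit, by role for the Wnt family (left, purple) and for 4 lists of other pathway genes and 1 of cell cycle genes (right, grey); bars are medians and dashed lines mark 2-fold. The Frizzled bar lies at 0.29, the β-catenin core at -0.02 and the cell cycle genes at -0.85.

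Promoter sequences are shown for those genes at least 2-fold higher on replicate 2 that the reference table holds, to set their upstream sequence side by side. RefSeq's promoter table (GRCm38.p6) held 33 of the 51 genes, among them Wnt2, Lgr4 and Ror1. Each line gives the 250 bases before a start site, on the gene's own strand. Capitals mark 3 motifs, searched on both strands: the TCF/LEF core in its forms CTTTGA and CTTTGT, the GC box GGGCGG and the CCAAT box CCAAT. The TATA box TATAAA was searched too and is in none of these 3 windows. Wnt2 lies on chr6:18030446-18030695 on the minus strand, Lgr4 on chr2:109917397-109917646 on the plus strand and Ror1 on chr4:100095541-100095790 on the plus strand.
Wnt2: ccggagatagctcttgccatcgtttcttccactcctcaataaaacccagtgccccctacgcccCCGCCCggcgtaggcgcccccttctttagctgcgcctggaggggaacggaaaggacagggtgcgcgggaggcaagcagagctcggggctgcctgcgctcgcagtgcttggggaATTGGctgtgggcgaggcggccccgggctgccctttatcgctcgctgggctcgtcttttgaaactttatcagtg
Lgr4: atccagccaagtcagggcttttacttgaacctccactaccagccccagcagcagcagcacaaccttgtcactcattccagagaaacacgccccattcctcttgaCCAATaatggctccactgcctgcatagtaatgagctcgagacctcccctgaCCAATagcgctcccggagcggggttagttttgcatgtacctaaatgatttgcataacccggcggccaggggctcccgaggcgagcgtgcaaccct
Ror1: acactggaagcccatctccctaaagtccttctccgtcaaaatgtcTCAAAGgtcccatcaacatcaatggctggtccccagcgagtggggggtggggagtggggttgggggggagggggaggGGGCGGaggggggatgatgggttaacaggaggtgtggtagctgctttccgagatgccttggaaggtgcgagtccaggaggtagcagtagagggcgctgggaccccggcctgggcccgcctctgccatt

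The 3 windows hold no motif in common among those searched. Wnt2 has 1 GC box and 1 CCAAT box, both on the opposite strand. Lgr4 has 2 CCAAT boxes and Ror1 has 1 GC box and 1 TCF/LEF core of the form CTTTGA on the opposite strand. Of the 33 genes, 5 (15.2%) had CTTTGA in a window, beside 15.8% of 27025 genes of the table. CTTTGT was in 6 (18.2%, beside 18.6%), the TATA box in 6 (18.2%, beside 14.3%) and the CCAAT box in 11 (33.3%, beside 37.5%). The GC box was in 25 of the 33 (75.8%), beside 35.4%, and the windows of these genes had a median GC content of 66.8%, beside 52.4% for all windows. A match is a match of letters and shows no binding.

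Other pathway genes were read from 4 lists that together hold 95 genes, of which 92 were measured. Of these, 84 (91.3%) were above the first limit on both arrays, beside 67.3% of all named genes, and 69 (75.0%) above the second, beside 49.7%. Lgr5 and Dkk1 are in the target list as well as among the Wnt family genes, and 7 genes are in more than 1 list.

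Genes for making, carrying and trimming Wnts outside the cell passed the first limit in 19 of 22 cases (86.4%) and the second in 15 (68.2%). Over all named genes, 67.3% passed the first and 49.7% the second. Wls, which carries Wnts to the surface, was at 12.08 ± 0.21 and Porcn, which adds their lipid, at 8.96 ± 0.01. Notum, which removes that lipid, was at 7.24 ± 0.01, between the limits. Of the ubiquitin ligases that remove Frizzled receptors, Znrf3 was at 9.65 ± 0.00 and Rnf43 at 7.24 ± 0.03. Sostdc1, Gpc3 and Ndp (norrin) were below the first limit on both arrays. At least 2-fold higher on replicate 2 were Trabd2b and Cthrc1. Trabd2b, which cuts Wnts, was at 533.1 and 1227 in linear intensity (2.30-fold). These values are averages over 2 probe sets, which are not given singly. Cthrc1, a secreted cofactor of the Ror branch, was at 838.8 and 1889 (2.25-fold). Trabd2b and Cthrc1 are 2 of the 19 genes above the mean limit (10.5%), beside 1.05% of all genes. None was 2-fold higher on replicate 1, beside 0.368%. The list median was 0.09. Gpc6 (1.87-fold), Sdc1 (1.69-fold) and Reck (1.64-fold), which encode cell surface proteins, were also over 1.5-fold higher on replicate 2.

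The β-catenin core passed the first limit in 29 of 30 cases (96.7%) and the second in 27. Ctnnb1, β-catenin itself, was at 12.70 ± 0.00, and its scaffold and kinase genes Apc, Axin1 and Gsk3b were at 10.54 ± 0.06, 10.06 ± 0.03 and 11.43 ± 0.01. The TCF/LEF genes Tcf7l1, Tcf7l2 and Lef1 were at 10.00 ± 0.11, 10.38 ± 0.29 and 8.80 ± 0.17, and Tcf7 had no single-gene probe set. Frat1 passed the first limit on 1 array. None of the 30 genes differed 1.5-fold, and the median difference was -0.02. Over all genes, 2.87% were 1.5-fold higher on replicate 2 and 1.91% on replicate 1, so a count of 0 is near the background share.

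Known β-catenin targets passed the first limit in 16 of 18 measured cases (88.9%, beside 67.3% of all named genes) and the second in 11 (61.1%, beside 49.7%). Axin2, the target most widely used as a readout of the branch, was at 7.72 and 7.71 on the arrays, and Sp5 at 7.85 and 7.79, both between the limits. Nkd1 (8.29 and 8.57) and Nkd2 (9.17 and 8.94) passed the second limit. Ccnd1 (12.76 ± 0.07) and Myc (11.96 ± 0.18) passed both limits, though many other signals drive these genes. Ccn4 was at 10.91 and 11.46. Ccn5, a matricellular protein gene, was the 1 target that differed 2-fold: it was at 897.1 and 6056 in linear intensity, 6.75-fold higher on replicate 2. This is 1 of 17 genes (5.88%), beside 1.05% of all genes. The list median was -0.00, with 8 of 17 genes higher on replicate 2.

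The polarity and calcium branch passed the first limit in 26 of 28 cases (92.9%) and the second in 19 (67.9%). The shares of all named genes were 67.3% and 49.7%. Vangl1 and Vangl2, core polarity membrane proteins, were at 9.75 ± 0.18 and 9.41 ± 0.03, the pseudokinase Ptk7 at 10.06 ± 0.20, the Dishevelled partner Daam1 at 9.61 ± 0.27 and Prickle1 at 7.79 ± 0.01. Celsr3 passed the first limit on 1 array and Mapk10 on neither. None of the 27 genes above the mean limit differed 1.5-fold, beside 2.87% of all genes for replicate 2 and 1.91% for replicate 1.

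Markers of the cells were measured beside these values. All 10 FRC markers, such as Pdpn and Pdgfrb, passed the first limit and 8 the second. The exceptions were Ccl19 (8.17 and 7.85, an average over 4 probe sets) and Il7 (8.66 and 7.74). Both passed the second limit on replicate 1 alone. Over all named genes 67.3% passed the first limit and 49.7% the second, and of the 32 tissue-restricted genes 43.8% passed the first. Of blood endothelial markers 3 of 6 passed the first and 0 the second limit, of leukocyte markers 4 of 8 and 1 (Cd68), of epithelial markers 3 of 5 and 1 (Krt8), of pericyte markers 4 of 5 and 3, and of lymphatic endothelial markers 2 of 5 and 1, the last being Pdpn, which FRCs share. Within these lists the members split. Of the leukocyte markers, Ptprc, Itgam and Ms4a1 were below the first limit on both arrays, Tyrobp passed it on 1 array, and Cd3e, Csf1r and Cd79b lay between the limits on both. Of the blood endothelial markers, Ackr1 was below the first limit on both arrays, Pecam1 and Tek passed it on 1, Cdh5 and Kdr lay between the limits, and Emcn passed the stricter limit on replicate 2 (8.40). Of the lymphatic endothelial markers, Prox1, Lyve1 and Mmrn1 were below the first limit, and Flt4 passed the stricter limit on replicate 1 (8.41). Of the epithelial markers, Epcam was below the first limit, Cdh1 passed it on 1 array, and Krt18 and Krt14 lay between the limits. Of the pericyte markers, Abcc9 was below the first limit, Cspg4, Notch3 and Mcam passed the stricter one on both arrays, and Rgs5 passed it on replicate 2. The part of other cell types in the Wnt family levels was not tested.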

How the data were processed

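Total RNA of 2 FRC samples was made into biotin-labelled cDNA and hybridised to 1 array each. The deposited values are intensities per probe set on a linear scale, made by the authors with RMA per the submitters' processing notes, with no version. RMA subtracts background, normalises by quantiles and summarises probes, which narrows differences at low signal. The set of arrays normalised together is not stated. Precision is limited by having 2 arrays.

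Of 24679 probe sets, the 21354 with 1 annotated gene were used, as log2 intensity, with probe sets of a gene averaged (pandas 2.3.3, numpy 2.4.6). All 51 genes matched RefSeq (GRCm38.p6), whose positions gave gene order only. With 1 group, no significance test was run. The Wnt family genes and all lists were chosen with earlier results of these data known. By rule, all Wnt family genes are named, and of the pathway lists a chosen set, those differing 2-fold, and the minority above or below the limit if it has at most 5 genes. Gpc6, Sdc1, Reck, Col3a1, Ccl19 and Il7 were named after their values were seen. The counting was tested on simulated data with planted shifts and the spread of olfactory receptor probe sets. Such a test checks the counting alone and not the differences reported here. Alternatives changed the limit, probe set, scaling (quantiles, or a loess trend removed with statsmodels 0.14.6), filter, floor, fold and arrays.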

Additional observations from a re-analysis of the deposited data

How the results depend on the processing

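The count of Wnt family genes above the first limit, 40, was 26 with the tissue-restricted limit, 46 with the 90th percentile, 27 with the 99th, 44 when 1 array sufficed, 42 without either replicate, and 40 with quantile normalisation or with the highest or lowest probe set. For ligands it fell from 16 to 9 with the 99th percentile, and for R-spondins the 90th percentile gave 4 and the 99th 0. All 4 Sfrp genes passed without replicate 1. The count above the stricter limit, 26, ran from 25 to 29. The 4 genes that differed 2-fold stayed 4 under the 8 alternatives in scaling, filter, floor and probe set, and were 6 at 1.5-fold. Only the changes of scaling altered the values of these 4 genes. Each of them has 1 probe set and all their values exceeded both limits, so the other alternatives could not remove any. Wnt2, Sfrp1, Lgr4 and Ror1 kept differences of at least 1.22 with quantile normalisation or the loess trend removed. RMA had already normalised by quantiles, and the median difference over all tested genes moved only from 0.005 to -0.008 and -0.002. Changes this small could hardly have removed any of the 4, so they are no check on these differences. No paired analysis was possible because there is 1 group. Signal near background limits what can be said of genes between the limits.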

Other observations

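Some Wnt genes lie next to each other, with no other protein-coding gene between them in the RefSeq order. There are 4 such pairs, and they did not pass the limits alike. Wnt10a passed the stricter limit on both arrays and its neighbour Wnt6 on neither. Wnt9a passed it on both arrays and Wnt3a on neither. Wnt10b and Wnt9b each passed it on 1 array, while Wnt1, next to Wnt10b, was below the first limit and Wnt3, next to Wnt9b, lay between the limits. The differences between the arrays in these 8 genes ran from -0.12 (Wnt9b) to 0.18 (Wnt10b).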
